A study of Macaca fascicularis with 21 samples.

Results

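Amnion cells of cultured cynomolgus monkey (Macaca fascicularis) embryos were taken as every cell that the deposited annotation calls E-AM, L-AM1 or L-AM2. These were 82 of 1453 cells, made up of 33 E-AM, 22 L-AM1 and 27 L-AM2 cells, and they came from 19 of the 21 embryos. The other 1371 cells were annotated as epiblast (EPI, 304 cells), gastrulating cells (Gast, 83), endoderm of the visceral layer or yolk sac (VE/YE, 101), primordial germ cells (PGC, 18), trophoblast (TE, 380) and extraembryonic mesenchyme (EXMC, 485). Per the labels' protocols, blastocysts freed of the zona pellucida were grown singly on Matrigel with serum raised over time, the outgrowth was dissected and stripped of extra-embryonic cells, and single cells were picked by hand. Shares of cells therefore describe the picked cells. Embryos were collected on labelled days 11, 12, 13, 14, 16 and 17, with 2, 5, 3, 4, 4 and 3 embryos. All were cultured embryos with no genotype or drug group, so the groups compared are annotated cells of the same embryos, labels and days.

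The amnion is the thin epithelium that closes the amniotic cavity over the epiblast. In primates it arises from epiblast cells around the time of implantation, and bone morphogenetic protein (BMP) signals, read through SMAD proteins and ID genes, are known to turn primate epiblast-like cells towards it. Transcription factors of the AP-2 (TFAP2), GATA and LIM homeodomain families are used as its markers, beside epithelial keratins and the loss of epiblast factors such as SOX2 and NANOG. In monkeys, ISL1 is a known amnion factor, and early amnion makes BMP4.

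Amnion cells were few and unequal between embryos. They made up 1.32% ± 0.218 of an embryo's cells on day 11 (SD, n = 2), 5.08% ± 3.20 on day 12 (n = 5), 5.74% ± 4.39 on day 13 (n = 3), 2.42% ± 2.16 on day 14 (n = 4), 12.4% ± 1.42 on day 16 (n = 4) and 2.62% ± 1.2 on day 17 (n = 3). The 4 day 16 embryos gave 42 of the 82 cells, at 10.4% to 13.6% each, and day 13 embryo 3 alone reached that range with 10.8%. Day 12 embryo 4 had 0 of 22 and day 14 embryo 3 had 0 of 79 cells, for which the exact 95% binomial intervals reach 15.4% and 4.56%. Every E-AM cell stood on days 11 to 14. L-AM1 and L-AM2 cells stood on days 16 and 17, except for 1 L-AM2 cell of day 13 embryo 3, so E-AM and the late labels differ in day too and the parts of label and day cannot be told apart. L-AM1 and L-AM2 shared the day 16 embryos. Median counts per cell were 28470 in E-AM, 103144 in L-AM1 and 66010 in L-AM2, against 61694 in non-amnion cells. Expression was compared in the 10 embryos with at least 3 amnion cells (2 of day 12, 1 of day 13, 2 of day 14, 4 of day 16 and 1 of day 17), which held 69 amnion and 727 other cells. Amnion sums held 37601 to 1840580 counts and sums of other cells 4607426 to 10806864 counts per embryo, and the deepest single cell gave 21.6% to 65.6% of an amnion sum.

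The amnion label was checked against 5 markers, namely ISL1, GABRP (a subunit of the GABA-A receptor), ATP12A (a proton and potassium pump), TFAP2A (an AP-2 factor) and VTCN1 (an immune checkpoint ligand). Because the annotation was made from these same expression values, tests of amnion against other cells measure how repeatable a difference was over embryos, and are no independent evidence for the cell type. ISL1 stood at 24.3 to 219 CPM in the amnion sums (median 100.1) and at 1.28 to 16.2 CPM in the other cells (median 2.72), and the ranges did not overlap. ISL1 was higher in amnion in all 10 embryos, with a log2 fold change of 5.03 ± 0.41 (SE) and an adjusted p of 4.09e-09. ATP12A stood at 0 to 578 CPM in amnion (median 80.9) and at 0 to 6.59 CPM in other cells (median 1.34), with a log2 fold change of 5.91 ± 0.53 and an adjusted p of 1.72e-07. It was higher in amnion in 9 embryos and at 0 in both sums of day 13 embryo 3. GABRP stood at 4.06 to 540.3 CPM in amnion (median 81.2) and at 0 to 19.4 CPM in other cells (median 2.76), with a log2 fold change of 5.43 ± 0.87 and an adjusted p of 0.00389. GABRP was higher in amnion in all 10 embryos, and its call was lost when embryos needed at least 5 amnion cells (adjusted p = 0.0966).

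TFAP2A and VTCN1 did not pass the test. TFAP2A stood at 21.8 to 409 CPM in amnion (median 233) and at 4.66 to 230.0 CPM in other cells (median 24.3), with a log2 fold change of 2.30 ± 0.76 and an adjusted p of 0.126. Its mean per cell was 362 CPM in E-AM, 173 in L-AM1 and 221 in L-AM2, against 372 CPM in TE cells, so trophoblast carried it too. With TE cells left out of the other cells, the log2 fold change of TFAP2A was 3.57 and its adjusted p 0.0004. VTCN1 stood at 0 to 534 CPM in amnion (median 40.7) and at 0.299 to 128 CPM in other cells (median 24.5), with a log2 fold change of 1.84 ± 0.92 and an adjusted p of 0.309. Its mean per cell was 12.4 CPM in E-AM, 186 in L-AM1, 528 in L-AM2 and 137 in the later epiblast label postL-EPI. VTCN1 was thus low in E-AM and was carried by later epiblast cells too.

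**Figure D1:**
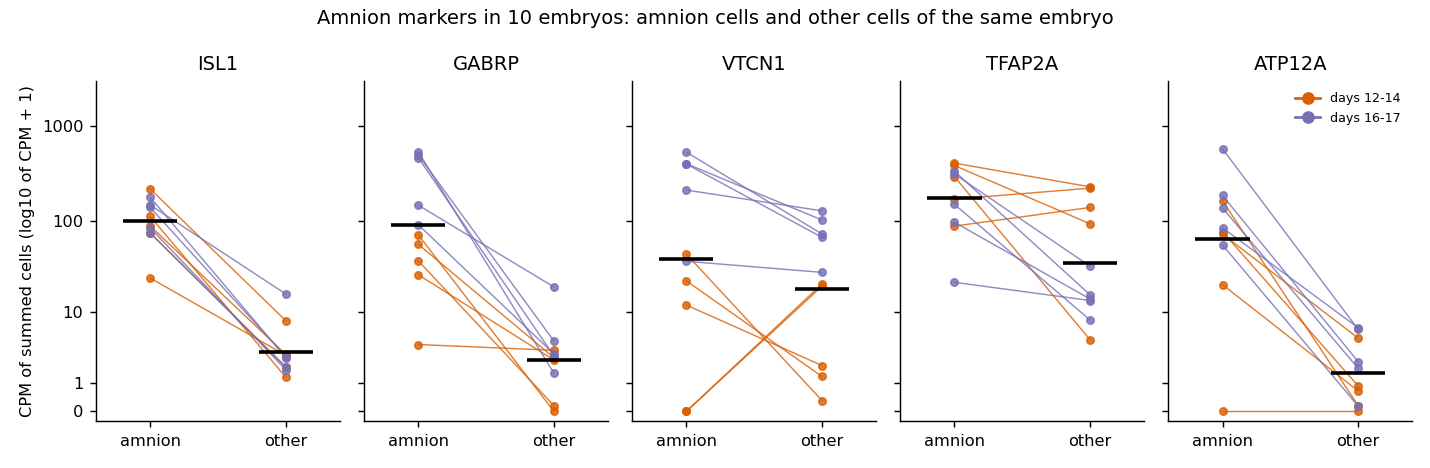
Levels of the 5 markers in summed amnion cells and summed other cells, on a log10 axis of CPM + 1; each line joins both sums of 1 of 10 embryos, coloured by day, and black bars are means on the plotted scale. ISL1 does not overlap between the sums, while TFAP2A and VTCN1 overlap.

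All 5 markers had a count in a larger share of amnion than of non-amnion cells. After each cell was thinned to 10000 counts, which kept 78 amnion and 1249 non-amnion cells, ISL1 was seen in 46.2% of amnion and 3.20% of non-amnion cells. Thinned shares were 39.7% against 2.32% for GABRP and 34.6% against 1.44% for ATP12A. They were 43.6% against 12.7% for VTCN1 and 70.5% against 32.7% for TFAP2A, which 82.4% of thinned TE cells also had. Without thinning, ISL1 had a count in 50 of 82 amnion cells (61.0%) and 154 of 1371 non-amnion cells (11.2%). At least 3 of the 5 markers were seen in 34 of 78 thinned amnion cells (43.6%) and in 5 of 1249 thinned non-amnion cells (0.40%). That share was 29.0% in E-AM (9 of 31), 31.8% in L-AM1 (7 of 22) and 72.0% in L-AM2 (18 of 25), so the label was carried by many cells in which most of these markers had no count at this depth.

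**Figure D2:**
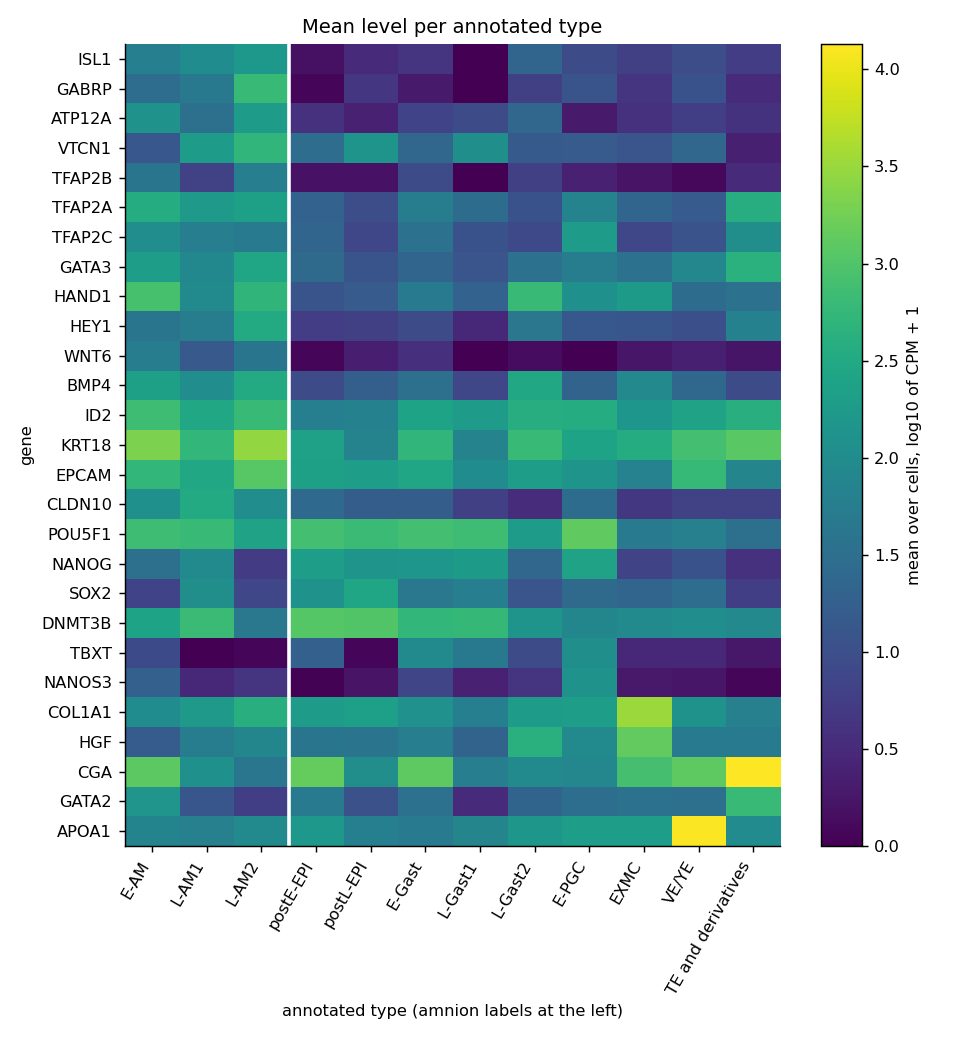
Mean level per cell of amnion markers and markers of other types (rows) in the 12 annotated types (columns), as log10 of CPM + 1, with the 3 amnion labels left of the white line. ISL1 and GABRP are highest in the amnion columns, and ATP12A and TFAP2B stand out in those of E-AM and L-AM2. In L-AM1 ATP12A (32.8 CPM) is close to the gastrulating label L-Gast2 (22.5 CPM). TFAP2A is as high in TE (372 CPM), and POU5F1 stays in the amnion columns.

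Amnion cells were then set against all other cells of the same embryos, with the embryo as a block. Of 12068 genes tested, 742 were called (6.15%), 234 higher in amnion (1.94%) and 508 lower (4.21%), and the median log2 fold change of all genes was -0.28. The split between rises and falls depended on what amnion was set against. It was 634 higher and 271 lower when each cell family had equal weight, 205 and 205 when cells were thinned to 20000 counts, and 202 and 240 without the block. The other cells changed their make-up with day, with TE at 59.2% and 66.3% of them in the 2 day 12 embryos and at most 1.45% in the day 16 embryos. EXMC made up 66.7% of them in day 13 embryo 3 and 66.3% in day 17 embryo 1, against 2.44% in day 14 embryo 2. In every embryo of the 10, 57 of the 234 genes called higher were higher and 204 of the 508 called lower were lower. The share of all tested genes with the same sign in every embryo is not given here. Amnion sums held 37601 to 1840580 counts and sums of other cells 4607426 to 10806864. A low gene is therefore more easily at 0 in amnion, and the part of depth in these numbers was not tested.

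The 12 largest rises that had the same sign in all 10 embryos included transcription factors, enzymes and membrane proteins. TFAP2B, a second AP-2 factor, stood at 9.01 to 116 CPM in amnion (median 32.9) and at 0 to 5.17 CPM in other cells (median 0.698), with no overlap, and its log2 fold change was 5.71 ± 0.80 (adjusted p = 3.70e-05). PDZRN4, a PDZ and RING finger protein, stood at 66.6 to 1034 CPM in amnion (median 226) and at 0 to 72.6 CPM in other cells (median 4.25; 5.29 ± 0.58, adjusted p = 0.000236). CA12, a carbonic anhydrase of the cell surface, stood at 37.0 to 310.1 CPM in amnion (median 169.9) and at 2.44 to 63.2 CPM in other cells (median 10.4; 3.77 ± 0.39, adjusted p = 4.38e-07). CA12 turns carbon dioxide into bicarbonate and protons outside the cell, and so belongs with ATP12A to the proteins that move acid across epithelia. COX4I2, a form of cytochrome c oxidase subunit 4, stood at 18.5 to 732 CPM in amnion (median 60.3) and at 1.05 to 58.7 CPM in other cells (median 5.64; 3.74 ± 0.35, adjusted p = 8.91e-08). FREM2, a matrix protein under embryonic epithelia, stood at 32.2 to 314 CPM in amnion (median 90.6) and at 5.32 to 44.7 CPM in other cells (median 11.2; 3.10 ± 0.42, adjusted p = 1.57e-05). The ranges of PDZRN4, CA12, COX4I2 and FREM2 overlapped between embryos, although amnion was higher within each embryo. MTUS2, a microtubule-associated protein, stood at 61.3 to 316 CPM in amnion (median 87.1) and at 2.04 to 57.6 CPM in other cells (median 12.7), without overlap (2.97, adjusted p = 5.72e-06). The other members of this set were GABRP, ISL1, NMRK2, PCDHAC2, the forkhead factor FOXP2 and ACSM3, an acyl-CoA synthetase of mitochondria. PCDHAC2 lost its call with at least 5 amnion cells per embryo and ACSM3 lost it without the day 16 embryos (adjusted p = 0.155).

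The 12 largest falls of the same kind were genes known from mesenchyme, endoderm, vessels, macrophages or trophoblast, although no annotated type is endothelial or macrophage. TTR, the thyroid hormone carrier made by visceral endoderm, stood at 0 to 43.7 CPM in amnion (median 0) and at 1.2 to 812 CPM in other cells (median 88.0), with a log2 fold change of -5.96 ± 0.48 (adjusted p = 4.09e-09). PDGFRA, a growth factor receptor of mesenchyme, was at 0 in 9 of 10 amnion sums and at 3.72 to 53.4 CPM in other cells (median 22.2; -5.88, adjusted p = 0.000102). MPEG1, a pore-forming protein of macrophages, stood at 0 to 8.11 CPM in amnion (median 0) and at 6.67 to 115 CPM in other cells (median 30.7; -5.59 ± 0.68, adjusted p = 3.25e-06). KYNU, an enzyme of tryptophan breakdown, stood at 0 to 18 CPM in amnion and at 24.0 to 84.8 CPM in other cells (median 37.4), and of these 4 genes KYNU alone had ranges that did not overlap. The WNT enhancers RSPO3 and RSPO2 (-5.30 ± 0.94 and -4.97), the endothelial cadherin CDH5 (-4.82) and the ligand BMP5 (-4.53 ± 0.62) fell as well. The log2 ratio of CDH5 was -1.97 to -1.06 in the day 16 embryos, where TE made up at most 1.45% of other cells. It was -2.61 in day 13 embryo 3 (TE 3.03%) and -6.47 to -4.11 on days 12, 14 and 17 (TE 12.0% to 66.3%). Which other cells carried CDH5 and MPEG1 was not tested. COLEC10, HSD17B2, EGFL6 and HSD3B1 complete the set. With equal weight of families COLEC10, HSD17B2 and BMP5 lost their call, without EXMC cells EGFL6 did, and without TE cells HSD3B1, an enzyme of progesterone synthesis, did (log2 fold change -1.32, adjusted p = 0.201).

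**Figure D3:**
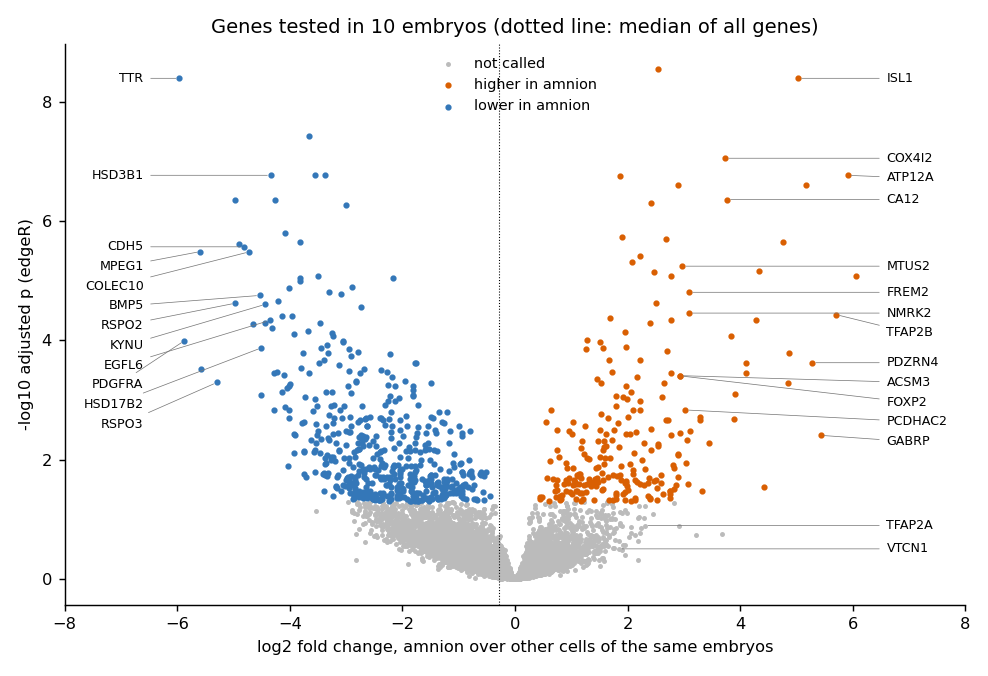
Log2 fold change of amnion over other cells of the same 10 embryos (x axis) against -log10 of the edgeR adjusted p (y axis), 1 point per gene, with genes called higher in orange and lower in blue. Of the labelled genes, ISL1 (5.03) and TTR (-5.96) lie highest on either side, while TFAP2A and VTCN1 lie among genes not called.

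Of 23 tested amnion transcription factors, 6 rose and 2 fell, with a median log2 fold change of 1.46 against -0.28 for all genes. ISL1 and TFAP2B are described above. GRHL2, a grainyhead factor of epithelia, stood at 46.4 to 324 CPM in amnion (median 155) and at 9.54 to 66.2 CPM in other cells (median 33), with a log2 fold change of 2.17 ± 0.37 (adjusted p = 0.000416, higher in 9 of 10 embryos). HAND1, a bHLH factor of extraembryonic tissues, stood at 55.5 to 1534 CPM in amnion (median 415) and at 15.0 to 248 CPM in other cells (median 93.4), with a log2 fold change of 2.63 ± 0.62 and an adjusted p of 0.0377. That call was lost without any of day 12 embryo 1, day 12 embryo 2, day 13 embryo 3, day 14 embryo 4, day 16 embryo 2 or day 16 embryo 4, at adjusted p-values up to 0.0826. HEY1, a Notch and BMP target, rose by 2.52 (adjusted p = 0.0291) but not without day 13 embryo 3, day 14 embryo 2, day 16 embryo 1, day 16 embryo 3 or day 16 embryo 4, where its adjusted p reached 0.100. MEIS1, a homeodomain cofactor, rose by 1.58 (adjusted p = 0.0118) and lost its call without TE or day 16, without the block or with at least 5 amnion cells. GATA2, a trophoblast and blood factor, stood at 0 to 131 CPM in amnion (median 17.0) and at 5.27 to 420.2 CPM in other cells (median 48.3; -1.49, adjusted p = 0.0179), and this call was lost without day 12 embryo 1 (0.0639) or day 14 embryo 2 (0.0560). PITX1 fell by 1.84 on the log2 scale, and its call also depended on single embryos (adjusted p = 0.0565 without day 12 embryo 2). GATA3 (1.42, adjusted p = 0.267), TFAP2C (1.66, adjusted p = 0.180) and CDX2 (1.99, adjusted p = 0.0770) did not pass, although amnion medians of 201, 98.4 and 34.5 CPM stood beside 52.8, 27.4 and 10.4 CPM in other cells.

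Among BMP ligands, BMP4 rose and BMP2 and BMP5 fell. BMP4 stood at 109 to 393 CPM in amnion (median 173) and at 13.2 to 132 CPM in other cells (median 52.6), was higher in all 10 embryos, and had a log2 fold change of 1.95 ± 0.29 (adjusted p = 7.28e-05). BMP2 stood at 0 to 55.5 CPM in amnion (median 1.66) and at 6.99 to 163 CPM in other cells (median 56.4), with a log2 fold change of -3.40 ± 0.56 (adjusted p = 0.000214). The BMP2 call was lost with equal weight of families and without EXMC cells. None of 9 tested BMP receptors and SMADs passed. Of 14 BMP target genes, 5 rose and 1 fell, with a median of 1.47. ID2, a dominant-negative partner of bHLH factors, stood at 148 to 1280.1 CPM in amnion (median 744) and at 113 to 326 CPM in other cells (median 181), a log2 fold change of 1.90 ± 0.21 (adjusted p = 1.87e-06). ID1 rose by 1.51 ± 0.32 (adjusted p = 0.00882), a call lost without EXMC cells. BAMBI, a decoy BMP receptor induced by the pathway, rose by 1.27 (adjusted p = 0.0258), and lost its call without 6 of the 10 embryos in turn (day 12 embryos 1 and 2, day 14 embryo 4, day 16 embryos 1, 2 and 4), at adjusted p-values up to 0.0705. The other called targets were ISL1, HEY1 and, lower, GATA2.

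WNT6 was the WNT ligand with the largest rise. It stood at 0 to 147 CPM in amnion (median 18.6) and at 0 to 5.28 CPM in other cells (median 0.257), with a log2 fold change of 6.06 ± 0.77 (adjusted p = 8.42e-06, higher in 9 of 10 embryos). WNT3 rose by 2.12 (adjusted p = 0.0432), and leaving out day 12 embryo 1 or 2, day 13 embryo 3, day 14 embryo 2 or 4, or day 16 embryo 1 took its adjusted p as high as 0.121. WNT3A fell by 2.95 on the log2 scale, a call lost without the block and with equal weight of families. Of 10 WNT targets and antagonists, RNF43, a ubiquitin ligase that removes WNT receptors, rose by 1.62 (adjusted p = 0.00577, lost without EXMC cells). FRZB, a secreted WNT inhibitor, fell to a median of 3.07 CPM in amnion, against 106 CPM in other cells (-4.98 ± 0.53, adjusted p = 4.38e-07). SFRP1, a second secreted inhibitor, fell by 1.79 on the log2 scale, but not without day 13 embryo 3 (0.0510) or day 14 embryo 4 (0.0633), and its value turned to 0.085 with equal weight of families.

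Junction genes and keratins were called higher and not lower when the 3 amnion labels were pooled. Of 21 tested junction and epithelial genes, 8 rose and 0 fell, with a median log2 fold change of 1.03. Of 4 tested keratins, 3 rose and 0 fell, with a median of 1.49. EPCAM, an epithelial adhesion protein, stood at 354 to 1135 CPM in amnion (median 547) and at 82.2 to 256 CPM in other cells (median 166), without overlap (1.86 ± 0.19, adjusted p = 1.74e-07). KRT18, a keratin of simple epithelia, stood at 1256 to 3086 CPM in amnion (median 1706) and at 153 to 951 CPM in other cells (median 525), also without overlap (2.05 ± 0.38, adjusted p = 0.0117). Its partner KRT8 rose by 1.70 ± 0.31 (adjusted p = 0.00942) and KRT19 by 1.28 ± 0.18 (adjusted p = 9.86e-05, lost with at least 5 amnion cells). The tight junction protein CLDN6 stood at 338 to 990.2 CPM in amnion (median 547) and at 61.3 to 466 CPM in other cells (median 205), with a log2 fold change of 1.56 ± 0.23 (adjusted p = 0.000135). CLDN4 rose by 1.87 (adjusted p = 0.0183), which was lost without day 14 embryo 2 (0.0566). CLDN10, a claudin that forms ion channels, rose by 4.42 (adjusted p = 0.0283), and the cadherin CDH3 by 1.67 (adjusted p = 0.0466). Both lost their call in most of the fits without 1 embryo, CLDN10 in 7 and CDH3 in 6 of 10, and CLDN10 ranged from 2.73 to 739.9 CPM among amnion sums. For CLDN10 these were the fits without day 12 embryo 1 or 2, day 13 embryo 3, day 14 embryo 4, day 16 embryo 1 or 2, or day 17 embryo 1, and for CDH3 those without day 14 embryo 2, any day 16 embryo or day 17 embryo 1. ESRP1, PKP2 and SPINT2 were the other called members, at 1.03, 1.05 and 0.72, and ESRP1 lost its call without day 12 embryo 1, day 13 embryo 3, day 14 embryo 2 or day 16 embryo 4.

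Of 16 ion and water transport genes, 3 rose and 2 fell, with a median of 0.27. Beside ATP12A and GABRP, CLIC5, a chloride channel family protein, stood at 0 to 129.5 CPM in amnion (median 33.4) and at 0.272 to 6.20 CPM in other cells (median 1.66), a log2 fold change of 4.10 ± 0.68 (adjusted p = 0.000236, higher in 8 embryos). CFTR, a chloride channel, fell by 3.75 on the log2 scale and was at 0 in 8 of 10 amnion sums, and ATP1B1, a sodium pump subunit, fell by 1.43. Both were lost with equal weight of families. Outside the lists, and chosen after their values were seen, LTF (lactoferrin, an iron-binding protein of secretions) stood at 0 to 507 CPM in amnion (median 46.5) and at 0 to 9.37 CPM in other cells (median 1.73; 5.16 ± 0.53, adjusted p = 2.52e-07). MPO, a peroxidase of neutrophil granules, stood at 0 to 169 CPM in amnion (median 36.6) and at 0 to 7.0 CPM in other cells (median 1.47; 4.76 ± 0.55, adjusted p = 2.22e-06). Of 11 immune and endothelial genes, the pan-leukocyte gene PTPRC and the embryonic globins HBE1 and HBZ were at 0 in all 3 labels. HBZ was at 0 in all other cells too. The leukocyte adaptor TYROBP was at 0 in L-AM2 alone. The list summed to 24.5 to 195 CPM in E-AM, 14.8 to 143 CPM in L-AM1 and 16.4 to 134 CPM in L-AM2, against 117 to 611 CPM in other cells, and its part in the MPO result was not tested. ATG10, an enzyme of autophagy, had the smallest adjusted p of all genes (2.91e-09), at 209.7 to 1583 CPM in amnion (median 592) and 37.1 to 180.4 CPM in other cells (median 118), without overlap (2.55 ± 0.19). It was outside the set of largest rises by the size of its change, and was chosen after its values were seen.

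Mesenchymal and matrix genes were lower in amnion. Of 17 tested EXMC genes, 0 rose and 12 fell, with a median log2 fold change of -2.82, and of 12 mesenchymal genes 0 rose and 7 fell (median -2.20). HGF, a growth factor of mesenchyme, stood at 0 to 236 CPM in amnion (median 16.6) and at 4.31 to 1258 CPM in other cells (median 392), a log2 fold change of -4.28 (adjusted p = 0.00145). CDH2, the mesenchymal cadherin, had a median of 17.6 CPM in amnion and 109 CPM in other cells (-2.25, adjusted p = 0.000553, lost without day 16). The collagen COL3A1 (-3.80), the proteoglycan DCN (-4.08) and the repressor ZEB2 (-3.47) were tied to EXMC in the other cells. Without EXMC cells their log2 fold changes were -0.84, -0.55 and -0.44 and none was called, and VIM and COL1A1 turned to 0.10 and 0.06. Of 13 basement membrane genes 0 rose and 6 fell (median -0.80). NID1 and NID2, linkers of laminin and collagen IV, fell by 3.81 (adjusted p = 9.03e-06) and 4.27 (adjusted p = 4.38e-07) on the log2 scale, while COL4A1 fell by 2.13 with EXMC cells among the others and was not called without them (-0.55).

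Markers of trophoblast, EXMC and endoderm were low in the amnion sums but not absent, whereas germ cell markers were not low in E-AM. Of 12 tested trophoblast genes 0 rose and 9 fell (median -2.39), among them GCM1 (-2.93, adjusted p = 0.00335) and CYP11A1 (-1.81, adjusted p = 0.000809), which both lost their call with equal weight of families. CGA, the hormone alpha subunit, stood at 9.54 to 1278 CPM in amnion (median 239.8) and at 37.9 to 8549 CPM in other cells (median 440.2; -2.07, adjusted p = 0.0363), and lost its call without 8 of 10 embryos in turn (all but day 16 embryo 4 and day 17 embryo 1). The summed level of 19 trophoblast genes was 768 to 1972 CPM in E-AM (median 957), 114 to 150.1 CPM in L-AM1 and 187 to 234 CPM in L-AM2, against 14214 to 22780 CPM in TE cells, with CYP19A1 at 0 in E-AM. For 18 EXMC genes the medians were 196 CPM in E-AM, 715 in L-AM1 and 1244 in L-AM2, against 21748 CPM in EXMC cells. For 17 endoderm genes they were 50.0, 91.9 and 103 CPM, against 12062 CPM in VE/YE cells, and FOXA1, AMN, SERPINA1 and APOA4 were at 0 in all 3 labels. Of 5 tested immune and endothelial genes 4 fell. For 10 germ cell genes the medians were 495 CPM in E-AM, 280 in L-AM1 and 277 in L-AM2. They were 247 CPM in all other cells and 1864 CPM in PGC cells. For 10 primitive streak genes they were 12.8, 21.2 and 7.02 CPM in the 3 labels, against 145 CPM in Gast cells. In E-AM the streak sum reached 200 CPM in its highest embryo. The part of these residual levels in the results was not tested.

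Epiblast genes did not fall as a block. Of 13 tested, 0 rose and 4 fell (median -1.29), and the lower ones were SOX2, OTX2, PRDM14 and ZIC2. SOX2 stood at 0 to 106 CPM in amnion (median 8.43) and at 2.66 to 303 CPM in other cells (median 70.3), a log2 fold change of -2.06 ± 0.38 (adjusted p = 0.000917). OTX2, a factor of anterior epiblast, stood at 0 to 30.8 CPM in amnion (median 6.05) and at 7.62 to 116 CPM in other cells (median 55.2), at -2.70 ± 0.58 (adjusted p = 0.00393). PRDM14 fell by 2.22 on the log2 scale (adjusted p = 0.0216), a call lost without day 14 embryo 4 (0.0679) or day 16 embryo 2 (0.0525). ZIC2 fell by 1.83 (adjusted p = 0.0352) and lost its call without 7 of the 10 embryos in turn (all but day 12 embryo 2, day 14 embryo 4 and day 16 embryo 2). POU5F1, the pluripotency factor, stood at 18.5 to 1160.0 CPM in amnion (median 585) and at 66.3 to 725 CPM in other cells (median 473), and did not pass (0.79, adjusted p = 0.351). NANOG (-0.86, adjusted p = 0.507) and DNMT3B (-0.21, adjusted p = 0.705) did not pass either. With equal weight of families the values of SOX2, PRDM14, NANOG and DNMT3B turned positive, at 0.21, 0.32, 0.83 and 0.84.

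Few cell cycle genes were called. Of 17 S-phase genes 0 rose and 1 fell (RRM1, -0.94, not without day 16 embryo 1, where its adjusted p was 0.0711), and of 16 mitosis genes none was called (median 0.09). Of 18 hypoxia genes PDK1, a kinase that turns pyruvate away from mitochondria, rose by 1.52 (adjusted p = 0.00174), while VEGFA and ADM fell by 2.01 and 2.51 on the log2 scale. The VEGFA call was lost without TE cells and the ADM call without day 16 embryo 4 (0.0532). Of 8 tested germ cell genes, SOX15 rose, at 13.6 to 112 CPM in amnion (median 41.6) and 2.66 to 28.4 CPM in other cells (median 8.38; 2.22 ± 0.43, adjusted p = 0.00144).

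The 9 embryos with 1 or 2 amnion cells, left out of every fit, held 13 amnion and 543 other cells. In their pooled sums all 5 markers, all 12 rises and all 12 falls had the direction found in the 10 embryos. This is a description without a test. These cells carry the same annotation, made from expression, so the shared direction is no independent evidence. The share of all called or tested genes that kept their direction is not given here. Some differences were small. RSPO2 stood at 32.1 CPM in amnion and 49.4 CPM in other cells, and ACSM3 at 29.2 and 14.4 CPM. PCDHAC2 had 7 counts in amnion. GABRP stood at 469.7 CPM in amnion and 0.892 CPM in other cells, PDZRN4 at 166 and 3.01 CPM, and TFAP2B at 67.1 and 1.90 CPM. Most of these GABRP counts came from 1 L-AM2 cell of day 17 embryo 3, which held 243381 counts. In that cell GABRP stood at 1874 CPM and VTCN1 at 1713 CPM. TTR stood at 0.972 CPM in amnion and 102 CPM in other cells. ISL1 was at 16.5 CPM in these amnion cells, below the lowest amnion sum of the 10 embryos, and at 6.53 CPM in other cells.

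Each label was next set against the other cells of the same embryos, with 5 embryos for E-AM, 3 for L-AM1 and 4 for L-AM2, in 1 fit of 12641 genes. E-AM had 439 called genes (3.47%), 133 higher (1.05%) and 306 lower (2.42%). L-AM2 had 476 (3.77%), 210 higher (1.66%) and 266 lower (2.1%). L-AM1 had 25 (0.198%), 4 higher (0.0316%) and 21 lower (0.166%). Without the replicate block the L-AM1 split turned to 86 higher and 44 lower. In L-AM2 the split was 225 higher and 186 lower with RLE scaling. L-AM1 had 1171 genes at an unadjusted p under 0.05, and DESeq2 called 168. Whether the difference from the other cells differs between the 3 labels was tested for each gene, and 333 of 12641 genes passed (2.63%). The 3 labels were also assigned from these same expression values. Tests by label therefore measure how repeatable a difference was over embryos, and are no independent evidence for the labels.

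E-AM, the label of days 12 to 14 here, carried ISL1 at 72.1, 23.1, 46.6, 84.0 and 105 CPM in its 5 embryos (log2 fold change against other cells 4.45 ± 0.72, adjusted p = 8.96e-05). CDX2, a caudal-type factor, stood at 219.7, 131, 337, 237 and 36.8 CPM (3.66 ± 0.64, adjusted p = 0.000284). TFAP2B (6.90 ± 1.14), WNT6 (7.58 ± 1.21), HAND1 (3.79 ± 0.59) and MSX1 (4.11 ± 1.13), a BMP-induced homeobox gene, rose in E-AM too. POU5F1 rose by 1.80 ± 0.34 (adjusted p = 0.00175), a call lost without day 16 embryo 4 (0.0928), whereas SOX2 fell by 2.78 on the log2 scale (adjusted p = 0.0364). NANOS3, a germ cell gene, stood at 16.4, 7.70, 0, 15.3 and 23.9 CPM (6.13 ± 1.43, adjusted p = 0.00806), a call lost without day 12 embryo 1 (0.0643). PGC made up 0% of the other cells in these 5 embryos. With the 3 labels pooled, NANOS3 did not pass (2.18, adjusted p = 0.473). Of 17 trophoblast genes 0 rose and 7 fell in E-AM, against other cells of which TE made up 59.2% and 66.3% on day 12, 3.03% on day 13 and 18.3% and 20.3% on day 14, while its own summed trophoblast level was the highest of the 3 labels. Of 5 tested keratins, 3 rose in E-AM and 2 fell. KRT8 rose by 1.16 ± 0.21 (adjusted p = 0.000349), KRT18 by 1.39 ± 0.28 (adjusted p = 0.00601, lost without day 16 embryo 4 at 0.122) and KRT19 by 0.80 ± 0.23 (adjusted p = 0.0391, lost without day 12 embryo 1, day 13 embryo 3, day 14 embryo 2 or 4 or day 16 embryo 4, without the block and with DESeq2). KRT23 stood at 26.2, 34.7, 0, 0 and 4.60 CPM in E-AM and averaged 135 CPM in other cells of all embryos in the fit (-4.44 ± 0.73, adjusted p = 0.000127, and 0.373 without the replicate block). KRT7, a keratin used as a trophoblast marker, stood at 0, 7.70, 0, 22.9 and 45.1 CPM in E-AM and averaged 55.8 CPM in other cells (-3.27 ± 0.88, adjusted p = 0.0262), a call lost with thinned cells, without the block or without day 12 embryo 1 or 2 or day 14 embryo 2. BNIP3, a mitophagy receptor induced by low oxygen, rose by 1.41 ± 0.18 in E-AM (adjusted p = 2.70e-06) but was -0.13 without the replicate block.

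L-AM2 had the highest median of the 3 labels for ISL1, GABRP and ATP12A. ISL1 stood at 160.0, 204, 212 and 151 CPM in the 4 day 16 embryos (5.53 ± 0.80, adjusted p = 1.36e-05). GABRP stood at 176, 534, 282 and 1069.7 CPM (6.70 ± 1.54, adjusted p = 0.0397), a call lost without day 14 embryo 2 or 4 or day 16 embryo 2 or 4, at adjusted p-values up to 0.142. ATP12A stood at 313, 212, 246 and 1108 CPM (6.61 ± 0.74, adjusted p = 1.22e-07). Of 24 amnion transcription factors 9 rose and 1 fell (median 2.00, against -0.39 for all genes). GATA3 rose by 3.61 ± 0.58 (adjusted p = 0.000198, lost without the replicate block), HEY1 by 4.40 ± 0.66 (adjusted p = 3.12e-05) and MEIS1 by 3.28 ± 0.67 (adjusted p = 0.00262). KRT8 rose by 3.49 ± 0.25 (adjusted p = 6.38e-13), KRT18 by 4.04 ± 0.34 (adjusted p = 2.34e-07) and the desmosome protein DSP by 2.82 ± 0.46 (adjusted p = 0.000281). Of 15 epiblast genes 0 rose and 9 fell in L-AM2 (median -4.07), including NANOG (-5.90 ± 1.13, adjusted p = 0.00195), DNMT3B (-3.07 ± 0.42, adjusted p = 2.69e-05) and SOX2 (-4.56 ± 0.78, adjusted p = 0.000257).

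Of the 5 markers ISL1 alone passed in the 3 embryos of L-AM1, at 124, 74.9 and 16.4 CPM in day 16 embryos 1, 3 and 4 (3.90 ± 0.82, adjusted p = 0.0306), and this call was lost without day 16 embryo 1 (2.82, adjusted p = 0.402) or day 16 embryo 2 (0.0801). GABRP stood at 58.1, 4.58 and 0 CPM and ATP12A at 6.04, 21.4 and 38.3 CPM, and neither passed. TFAP2A and VTCN1 did not pass either, though without thinning TFAP2A had a count in 81.8% and VTCN1 in 77.3% of the 22 L-AM1 cells, and VTCN1 also in 78.4% of postL-EPI cells. The other 3 rises were NEBL, an actin-binding protein (2.97, adjusted p = 0.00248), SPNS2, a sphingolipid transporter (3.26, adjusted p = 0.0361), and TMEM54 (2.71, adjusted p = 0.0394). SPNS2 lost its call without any of the 4 day 16 embryos, and TMEM54 without any of them or day 14 embryo 2. Among the 21 falls were TTR (-5.56, adjusted p = 0.00044) and DCN (-4.11, adjusted p = 0.00044). Of 15 epiblast genes none was called in L-AM1 (median -0.04). The summed level of 16 epiblast genes was 1991 to 2174 CPM in L-AM1 (median 2103), 700.2 to 1857 CPM in E-AM and 454 to 847 CPM in L-AM2, beside 2548 to 3989 CPM in EPI cells (median 3034).

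The 2 late labels were compared directly, L-AM2 over L-AM1, within that fit. Because both labels were assigned from these same values, calls and gaps between them are no independent evidence for the split. Of 12641 genes 303 were called (2.4%), 148 higher in L-AM2 (1.17%) and 155 lower (1.23%), and with RLE scaling the split was 178 and 123. Leaving out day 16 embryo 2, 3 or 4 brought the count to 185, 126 and 125. ATP12A was 4.54 ± 0.80 higher in L-AM2 on the log2 scale (adjusted p = 0.00125), a difference not called without the block (0.0695). KRT8 stood at 1896, 2975, 2314 and 4311 CPM in L-AM2 and at 466, 325 and 388 CPM in L-AM1 (2.83 ± 0.28, adjusted p = 1.77e-08). KRT18 stood at 3273, 3516, 3189 and 3096 CPM in L-AM2 and at 529, 196 and 224 CPM in L-AM1 (3.48 ± 0.38, adjusted p = 4.30e-05, not without day 16 embryo 4, at 0.0800). EPCAM was 1.94 ± 0.36 higher in L-AM2 (adjusted p = 0.00174) and MEIS1 3.97 ± 0.82 (adjusted p = 0.00513). The keratins and EPCAM did not overlap between the labels.

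Epiblast genes ran the other way between the late labels, with 0 of 15 higher and 5 lower in L-AM2 (median -2.90). DNMT3B, a DNA methyltransferase of epiblast, stood at 98.8, 65.3, 69.8 and 16.2 CPM in L-AM2 and at 751, 744 and 1302 CPM in L-AM1 (-3.91 ± 0.47, adjusted p = 1.14e-05). NANOG stood at 0, 1.95, 4.65 and 0 CPM in L-AM2 and at 113, 136 and 27.3 CPM in L-AM1 (-5.87 ± 1.2, adjusted p = 0.00633), a call lost without day 16 embryo 4 (0.157). SOX2 stood at 4.71, 5.85, 1.55 and 5.40 CPM in L-AM2 and at 49.8, 55.0 and 208 CPM in L-AM1 (-4.10 ± 0.84, adjusted p = 0.00455), and the call was lost without day 16 embryo 3 (0.0562) or 4 (0.0591). PRDM14 had 3 counts in L-AM2 and 107 in L-AM1, a ratio of 0.0274 (95% exact counting interval 0.00557 to 0.0823), and was not called without day 16 embryo 1 (0.0926) or 3 (0.117). The secreted inhibitor SFRP1 was -3.63 ± 0.60 (adjusted p = 0.000494) and POU5F1 -0.96 ± 0.39 (adjusted p = 0.180).

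Some genes were counted in L-AM2 alone of the late labels. VGLL1, a TEAD cofactor, had 78 counts in L-AM2 and 0 in L-AM1, at least 25.4-fold higher against 3 counts over the group (adjusted p = 0.00162, lost with thinned cells or without the block). ANGPT1, an angiopoietin, had 212 and 0 counts, at least 69.1-fold higher (adjusted p = 0.0116, lost without day 16 embryo 3 at 0.0881). TFAP2B had 91 and 2 counts, a ratio of 44.5 (12.0 to 373), with a call lost without day 16 embryo 3 (0.0963) or 4 (0.117). WNT6 had 98 counts in L-AM2 and 1 in L-AM1, a ratio of 95.8 (16.8 to 3823), with a call lost without day 16 embryo 1 (0.0719) or 3 (0.139). HAND2, ITPKB, KLHL8 and LOX had 127, 108, 61 and 79 counts in L-AM2 and 0 in L-AM1, which is at least 41.4-fold, 35.2-fold, 19.9-fold and 25.7-fold higher. Each of these 4 lost its call without day 16 embryo 3, ITPKB, KLHL8 and LOX also without embryo 4, and KLHL8 and LOX also without embryo 1. In the other direction MROH9 had 0 counts in L-AM2 and 63 in L-AM1, at least 21.5-fold lower, with a call lost without day 16 embryo 4 (0.140). CABLES1 (0 and 64 counts), KCNG3 (0 and 31), ZNF14 (0 and 33), BSN (1 and 51) and PIGR (1 and 25) were lower too, and each lost its call without 2 or more of the day 16 embryos in turn, 2 and 4 among them for all 5.

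Of 14 basement membrane genes 2 were called higher in L-AM2 than in L-AM1 and 0 lower (median 1.79), and of 21 junction and epithelial genes 2 higher and 0 lower (median 1.08). The called junction genes were EPCAM and DSP, of which DSP (1.96 ± 0.52, adjusted p = 0.0362) lost its call without the block or without day 16 embryo 2, 3 or 4. LAMC1, a laminin chain, was 2.49 ± 0.66 higher (adjusted p = 0.0300), a call lost without the block or without day 16 embryo 1, 3 or 4. LAMB1, another laminin chain, stood at 247, 233, 248 and 1334 CPM in L-AM2 and at 58.1, 81.0 and 115 CPM in L-AM1 (2.53 ± 0.49, adjusted p = 0.00267). NDRG1, a stress-induced gene of differentiating epithelia, stood at 148, 163, 121 and 351 CPM in L-AM2 and at 13.6, 18.3 and 16.4 CPM in L-AM1 (3.49 ± 0.76, adjusted p = 0.00784, lost without day 16 embryo 4 at 0.0565). The mitosis genes CDC20 and CCNB1 were lower in L-AM2, by 1.67 and 1.87 on the log2 scale, with calls lost without day 16 embryo 2 or 3 for CDC20 and without any 1 of 7 embryos for CCNB1 (day 12 embryo 1, day 14 embryos 2 and 4, and each of day 16). DLK2, an EGF-repeat membrane protein, stood at 233, 374, 507 and 399.8 CPM in L-AM2 and at 15.1, 9.17 and 5.47 CPM in L-AM1 (5.12 ± 0.81, adjusted p = 0.000332), and at 6.56, 0, 0, 7.63 and 0 CPM in E-AM. CA3, a carbonic anhydrase, stood at 854, 675, 688 and 308 CPM in L-AM2 and at 134, 252 and 0 CPM in L-AM1 (3.29, adjusted p = 0.0174). RGS5, a G-protein regulator, was high in both late labels and low in E-AM. It stood at 163 to 412 CPM in L-AM2 and at 49.8 to 268 CPM in L-AM1, against 0 to 4.60 CPM in E-AM (test of the label difference, adjusted p = 0.0151).

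**Figure D4:**
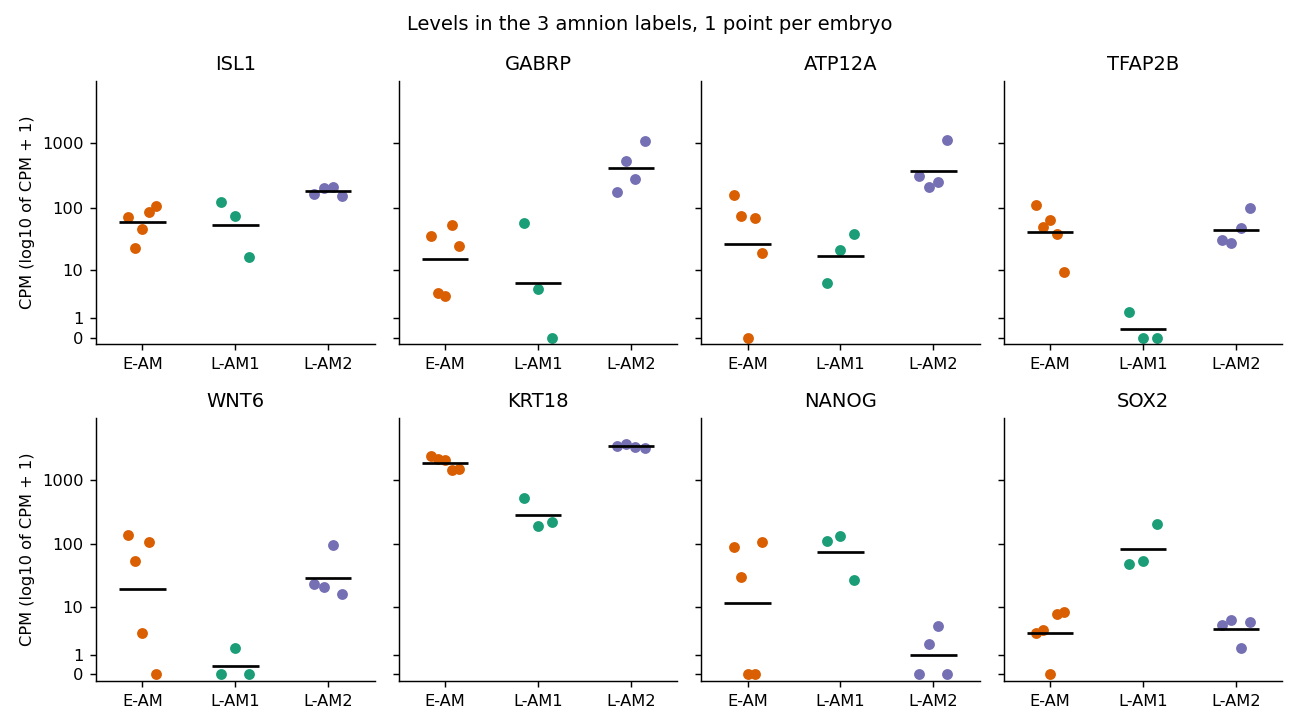
Levels of 8 genes in E-AM (5 embryos), L-AM1 (3) and L-AM2 (4), 1 point per embryo sum on a log10 axis of CPM + 1, with bars at the mean on that scale. KRT18 is lowest in L-AM1 (196 to 529 CPM), where SOX2 is highest (49.8 to 208 CPM) and TFAP2B is at most 1.51 CPM.

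Tested over the 3 labels, the difference from other cells varied for ATP12A (adjusted p = 0.00260), MEIS1 (0.00327), GATA3 (0.00667), HEY1 (0.0155), VGLL1 (2.35e-05) and KRT8 (2.26e-09), and not for ISL1 (0.468), GABRP (0.322), TFAP2A (0.734) or VTCN1 (0.761). The other cells differed too, with TE at 59.2% and 66.3% of them on day 12 and at most 1.45% on day 16. The gene CPM (not the unit) had 18 counts in E-AM, 25 in L-AM1 and 36 in L-AM2, yet was called (0.00889). The part of the other cells in these calls was not tested. CDX2 passed as well (0.0180), but not without day 14 embryo 2 (0.0541) or day 16 embryo 3 (0.0916). The 6 largest differences with E-AM above the late labels, each against other cells, were HOXB9, KIAA1377, COL2A1, HOXD3, ANGPT1 and HOXA13. Of these, COL2A1 and ANGPT1 had more counts in L-AM2 (219 and 212) than in E-AM (126 and 142). The 6 largest the other way were LPCAT2, FLT1, CPM, TRIM54, NR2F2 and UNC5C, of which TRIM54 had 52 counts in L-AM1 and 1 in L-AM2. HOXD3 stood at 170.5, 69.3, 43.3, 15.3 and 51.5 CPM in E-AM, at 0.755, 0 and 0 CPM in L-AM1 and at 0, 1.95, 0 and 0 CPM in L-AM2 (adjusted p = 0.0130, not without day 16 embryo 3, at 0.0770). HOXA13 stood at 46.9 to 107 CPM in E-AM, at most 5.47 CPM in L-AM1 and at most 4.87 CPM in L-AM2 (adjusted p = 0.0213, and 0.0503 without day 12 embryo 2). FLT1, a VEGF receptor, stood at 0, 7.70, 0, 7.63 and 0 CPM in E-AM, at 46.8, 174 and 32.8 CPM in L-AM1 and at 400.0, 404, 198 and 475 CPM in L-AM2 (adjusted p = 5.34e-05). Reads of near-identical HOX and KRT family members may have been split between genes by the counting, whose rule the sources used here do not give.

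Change with day was tested in the amnion sums of the same 10 embryos. Of 6864 genes 36 passed (0.524%), 29 rising (0.422%) and 7 falling (0.102%), but without the 4 day 16 embryos 3 were called. Values below run over the 2 day 12, 1 day 13, 2 day 14, 4 day 16 and 1 day 17 embryos, and are scaled within this fit, so they differ slightly from those above. NLRP2, known in mouse as a maternal-effect gene, stood at 954, 779, 176, 438, 351, 48.8, 55.2, 55.4, 22.1 and 22.2 CPM, a change of -1.05 ± 0.14 per day on the log2 scale (adjusted p = 0.000899, and 0.147 without day 16). CDX2 stood at 251, 149.5, 194, 266, 41.8, 11.6, 30.7, 13.9, 0 and 0 CPM (-1.07 ± 0.23, adjusted p = 0.0374), a call lost without any of day 12 embryo 1, day 16 embryos 1, 2 and 3 or day 17 embryo 1, at adjusted p-values up to 0.103. TBX3, a T-box factor, fell at -0.66 ± 0.14 per day (adjusted p = 0.0374), a call lost without day 12 embryo 1, day 13 embryo 3, day 14 embryo 2 or day 16 embryos 1, 2 and 3. DPYSL3 (-0.90 ± 0.15), NMRK2 (-0.73 ± 0.15) and ATP8A1 (-0.71 ± 0.16) fell as well. The NMRK2 and ATP8A1 calls were both lost without day 12 embryo 1 or 2 or day 16 embryo 1, 2 or 3, and that of ATP8A1 also without day 14 embryo 2.

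The 6 largest rises with day were CA3, CXCL14, DCN, ADRA1B, RGS5 and PDZRN3. CXCL14, a chemokine, stood at 0, 0, 12.1, 8.58, 166, 123, 1324, 696, 933 and 1532 CPM (1.80 ± 0.26 per day, adjusted p = 0.00692, and 0.0895 without day 16). RGS5 stood at 0, 0, 20.8, 0, 5.23, 147, 307, 142, 359 and 444 CPM (1.60 ± 0.23, adjusted p = 0.00328). CA3 rose at 2.68 ± 0.45 per day (adjusted p = 0.0135, lost without day 12 embryo 1 at 0.0854 or day 16 embryo 4 at 0.0770), and DCN at 1.73 ± 0.31 (adjusted p = 0.00802). IGFBP3, a carrier of insulin-like growth factors, stood at 26.2, 35.2, 58.8, 8.58, 32.4, 389, 944, 535, 303 and 399.6 CPM, a rise of 1.04 ± 0.18 per day (adjusted p = 0.00736), called in every fit without 1 embryo. GABRP rose at 0.93 ± 0.18 (adjusted p = 0.0205), but not without day 12 embryo 2 (0.0581). PDZRN3 (1.58 ± 0.28) and ADRA1B (1.67 ± 0.34) rose too, the first not without day 17 embryo 1 (0.0709) and the second not without day 12 embryo 2 (0.0884) or day 14 embryo 2 (0.0550). Of 18 amnion transcription factors 0 rose and 2 fell with day (median -0.15, against 0.00 for all genes), while ISL1 (0.12), TFAP2A (-0.14) and VTCN1 (0.98) did not pass, and of 9 EXMC genes 2 rose. Summed EXMC markers were 188 to 377 CPM in E-AM and higher in L-AM1 (679 to 1885 CPM) and L-AM2 (549 to 3219 CPM), and their part in the rise of genes such as DCN was not tested.

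**Figure D5:**
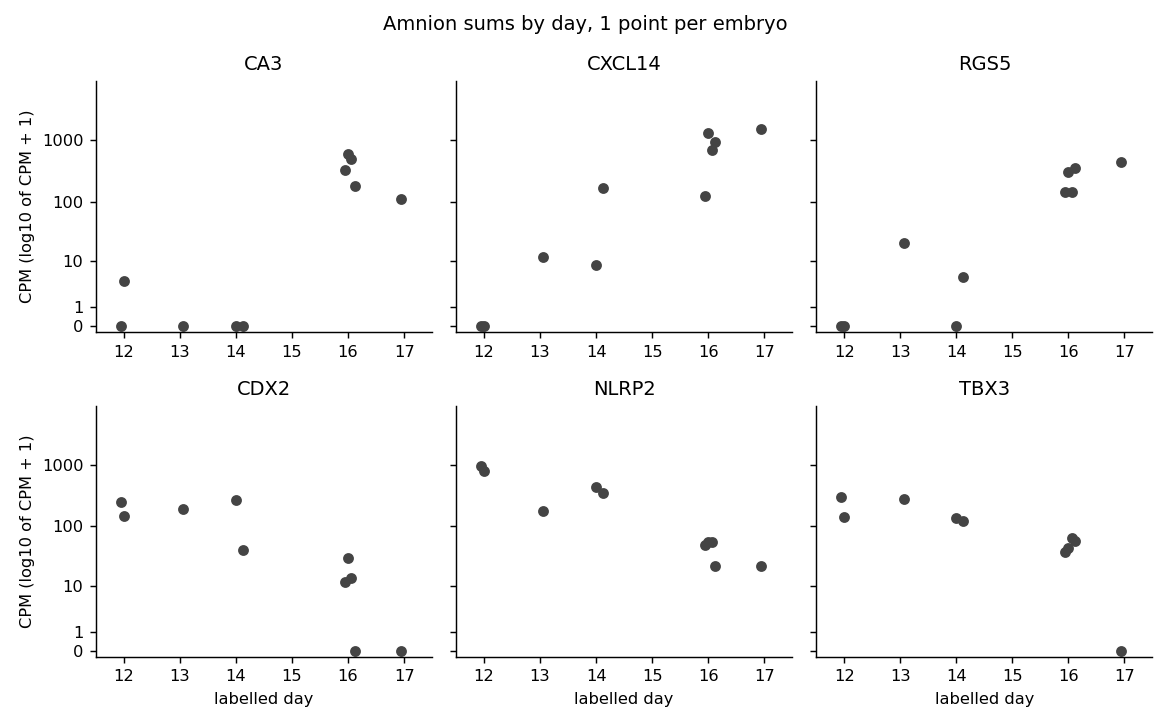
Levels in the amnion sums of 10 embryos by labelled day (x axis), 1 point per embryo, on a log10 axis of CPM + 1, for 3 genes that rose and 3 that fell. CA3, CXCL14 and RGS5 lie higher on days 16 and 17 than on day 12, and CDX2, NLRP2 and TBX3 lower, with no embryo between days 14 and 16.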

How the data were processed

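Single picked cells of 21 embryos were read at the 3' end, and the authors deposited whole-number counts for 30792 genes in 1453 cells with a table of each cell's day and type. STAR is the only tool named per the submitters' processing notes, and the sources used here give neither its version nor the genome build, the counter or the filters. Amnion cells were taken from the deposited annotation. Counts were summed per embryo, with both sums from the same embryo, which is where the pairing comes from, and sums needed at least 3 cells (of a label, for labels). Genes kept by filterByExpr were scaled by TMM and put through edgeR's quasi-likelihood test (edgeR 4.0.16, R 4.3.3) with the embryo as a block, or with day as a number. Calls were made under 0.05 after Benjamini-Hochberg adjustment, and every adjusted p of the text comes from that edgeR test unless DESeq2 1.42.0 is named. CPM are TMM-scaled within each fit, so values of the same embryo differ slightly between fits. Values after ± are SE for log2 changes and SD for shares. Each SE was worked back from the edgeR test, as the size of the log2 change over the square root of its F statistic. No label names a sequencing batch. In 5 embryos (2 of the 10 tested) the label giving the day is named culture stage, and in 16 developmental stage.

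Of 16890 numbered gene identifiers, 3273 were given a symbol through the RefSeq gene table, CA3, CXCL14, DCN, GATA2, RGS5 and BNIP3 among them. Without a read counter or molecule tags on record, intervals cover counting error only. Cells were picked by hand and no doublet caller was used, and no pair of cells had identical values. The members and the gene lists were chosen with earlier results of these data known. Named genes were the 5 markers, the 12 largest rises and falls with the same sign in every embryo and at least 20 CPM, called or role-defining list members, and the 6 largest in each direction for labels and day. The fits were tested on simulated counts. Alternatives were RLE scaling, no filter, DESeq2, each embryo left out, 1 label type, no block, other cell minimums, other cells without TE or EXMC or with equal family weight, and label type as a covariate. Thinned cells and leaving out day 16 were added after seeing the data.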

Additional observations from a re-analysis of the deposited data

Results flagged for a closer look

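In day 13 embryo 3, the log2 ratio of amnion to other cells stood far from the other 9 embryos for 2 genes. It was 0 for ATP12A, which had no count in either sum there, and 6.75 for ACSM3, which stood at 559 CPM in amnion and 4.21 CPM in other cells of that embryo. Chance flags about 1 in 20 such groups of values. That amnion sum held 4 cells and 594997 counts, of which the deepest cell gave 53.0%. That cell, with 315091 counts, was the embryo's 1 L-AM2 cell, and the other 3 cells were E-AM, the label of the other sums of days 12 to 14.

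The difference from other cells varied between the 3 amnion labels for ATP12A (adjusted p = 0.00260), TFAP2B (adjusted p = 0.0273) and COX4I2 (adjusted p = 0.0455), of the markers and the largest rises. ATP12A stood at 212 to 1108 CPM in L-AM2, 6.04 to 38.3 CPM in L-AM1 and 0 to 157 CPM in E-AM. TFAP2B stood at 28.3 to 97.2 CPM in L-AM2, 0 to 1.51 CPM in L-AM1 and 9.19 to 111 CPM in E-AM, and its label difference was not called without day 16 embryo 3 (0.141) or 4 (0.0782). COX4I2 stood at 325 to 1222 CPM in L-AM2, 60.2 to 203 CPM in L-AM1 and 0 to 62.3 CPM in E-AM.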

How the results depend on the processing

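Counts of called genes moved by over 1.5 times with the tool, the filter, the block, the minimum number of cells and single embryos. With DESeq2, 1348 genes were called for amnion against other cells, 800 for E-AM, 168 for L-AM1, 1011 for L-AM2, 799 for the label difference, 1010 for L-AM2 over L-AM1 and 203 with day. Without a filter, amnion against other cells had 1393, L-AM1 151, the label difference 534 and day 443. Without the replicate block, which joins both sums of an embryo, they were 442, 130 for L-AM1, 1104 for L-AM2 and 1274 for the label difference. With at least 5 amnion cells, 317 were called for amnion and 87 with day. With at least 2 cells of a label, E-AM had 911, L-AM1 649, L-AM2 794, the label difference 666 and L-AM2 over L-AM1 802. Thinned cells gave 410 for amnion, 43 for L-AM1 and 464 for L-AM2 over L-AM1. Developmental stage labels alone gave 467 for amnion and 188 for E-AM. In the fit of the labels this is the same fit as that without day 12 embryo 1, its only culture stage embryo. Amnion against other cells without EXMC gave 373, L-AM1 with RLE scaling gave 15, and day without day 16 gave 3. Leaving out 1 embryo gave 533 to 689 for amnion, 188 to 654 for E-AM, 6 to 34 for L-AM1, 132 to 594 for L-AM2, 162 to 436 for the label difference, 125 to 389 for L-AM2 over L-AM1 and 19 to 77 with day. E-AM fell to 188, 260, 289 and 253 without day 12 embryo 1, day 12 embryo 2, day 13 embryo 3 and day 14 embryo 4, L-AM1 to 6, 9 and 14 without day 16 embryos 1, 2 and 3, L-AM2 to 132 and 317 without day 16 embryos 2 and 4, and the label difference to 162 and 182 without day 16 embryos 2 and 3. The day count was 19 and 22 without day 12 embryo 1 and day 16 embryo 3, and 72 and 77 without day 13 embryo 3 and day 17 embryo 1. The cause of these moves was not tested, beyond fewer embryos or genes by construction.

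Of the single-gene values rerun, 23 changed sign, 3340 kept their side of the threshold, 537 lost a call and 57 gained one. For amnion against other cells the changed values were 0.14 for GATA2 and 0.15 for CYP11A1 without TE, 0.059 for COL1A1 and 0.10 for VIM without EXMC, and, with equal weight of families, 0.085 for SFRP1, 0.83 for NANOG, 0.21 for SOX2, 0.32 for PRDM14 and 0.84 for DNMT3B (0.050 with at least 5 amnion cells). VTCN1 in E-AM (0.47, not called) was -0.25 with thinned cells, -0.27 with DESeq2 and -2.06 without the replicate block. It was -2.10 without day 12 embryo 1, which is the same fit as developmental stage labels alone and is counted under both names. It was -0.49 without day 12 embryo 2, and reached 2.20 without day 14 embryo 4. BNIP3 in E-AM was -0.13 and TFAP2A in L-AM1 -0.036 without the replicate block, and GABRP in L-AM1 ran from -1.43 without day 16 embryo 1 to 3.77 without day 16 embryo 3. With day, ISL1 ranged from -0.010 without day 12 embryo 2 to 0.27 without day 13 embryo 3, and VTCN1, TFAP2A and ATP12A were -0.025, 0.022 and -0.26 without day 16. Other scalings moved the median of all genes, which for amnion against other cells was -0.28 as reported, -0.21 with RLE, -0.04 with equal family weight, -0.08 without the block, -0.10 with thinned cells and -0.76 with no filter. Depth limits the amnion side unevenly, with 37601 counts in the shallowest amnion sum and 1840580 in the deepest. A gene at 0 in a shallow sum may be present but undetected, while a 0 in a deep sum bounds its level more closely.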
